A study of Homo sapiens with 24 samples.

Results

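The 5 loci described here, KISS1R, TGFBR3L, EBF2, THEMIS2 and GBP4, are genes best known from tissues other than heart muscle. They were chosen from the same H3K4me3 libraries because the mark was higher there in knockdown, so their H3K4me3 values are given as a description, without a test. A region belongs to a locus if it overlaps the hg19 window of that gene, which gives 12 of 153244 regions: 3 for KISS1R, 2 for TGFBR3L, 4 for EBF2, 1 for THEMIS2 and 2 for GBP4. The cells were ventricular-like cardiomyocytes at day 15 of differentiation, differentiated with a commercial kit from H9, an embryonic stem cell line of human origin, and both groups share that line and that treatment. One group is labelled control and the other ZNF436 knockdown (ZNF436 is a zinc finger protein). The method of the knockdown is not stated in the labels. Each of 4 histone marks was read in 3 control and 3 knockdown libraries by CUT&Tag, an assay that tethers Tn5 transposase to an antibody bound at the mark and sequences the DNA cut nearby. All cells come from 1 line, and no label says whether replicates were grown as separate cultures. P-values here therefore reflect how much these libraries vary, which could be technical variation alone.

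H3K4me3 marks the start sites of genes that are active or poised. H3K27ac marks active promoters and enhancers, H3K4me1 marks enhancers and the flanks of promoters, and H3K9me3 marks heterochromatin, where many zinc finger proteins of the KRAB family recruit silencing. KISS1R is the G protein-coupled receptor for kisspeptin, which acts on the neurons that release gonadotropin-releasing hormone at puberty. TGFBR3L is a membrane protein related to the TGF-beta co-receptor betaglycan. EBF2 is a transcription factor of the early B-cell factor family, known for its part in brown fat. THEMIS2 is a signalling protein of B cells and macrophages, and GBP4 is an interferon-inducible GTPase of the guanylate-binding protein family.

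The promoters differ in base composition, which is why the sequences of 3 of them are shown. They are the 250 bases before the annotated start in RefSeq (GRCh38.p14, 5′ to 3′ on the strand of the gene), a newer build than the hg19 of the read counts, and 3 of the 5 genes matched an entry. TGFBR3L lies at chr19:7914580-7914829 on the plus strand, THEMIS2 at chr1:27872294-27872543 on the plus strand and GBP4 at chr1:89198943-89199192 on the minus strand. Capitals mark matches, on either strand, to the motifs searched.
TGFBR3L: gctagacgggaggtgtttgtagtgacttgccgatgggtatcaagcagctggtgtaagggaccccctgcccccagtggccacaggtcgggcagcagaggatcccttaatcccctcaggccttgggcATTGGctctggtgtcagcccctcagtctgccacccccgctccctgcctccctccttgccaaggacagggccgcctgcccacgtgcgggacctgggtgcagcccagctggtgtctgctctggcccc
THEMIS2: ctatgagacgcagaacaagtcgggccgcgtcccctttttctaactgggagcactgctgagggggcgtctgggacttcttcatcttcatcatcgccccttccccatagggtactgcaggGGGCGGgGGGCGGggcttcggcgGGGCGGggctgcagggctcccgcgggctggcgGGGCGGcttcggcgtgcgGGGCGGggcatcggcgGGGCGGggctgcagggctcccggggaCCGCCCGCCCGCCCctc
GBP4: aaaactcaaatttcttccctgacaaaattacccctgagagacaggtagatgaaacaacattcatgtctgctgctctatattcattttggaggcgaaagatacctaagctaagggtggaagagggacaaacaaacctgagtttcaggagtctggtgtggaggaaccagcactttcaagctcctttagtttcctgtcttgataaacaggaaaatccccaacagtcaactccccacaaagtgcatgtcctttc

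The THEMIS2 promoter held 26 CG dinucleotides and 73.6% G or C, the TGFBR3L promoter 7 and 66.0%, and the GBP4 promoter 1 and 43.2%. Across 27305 promoters of the same length the median was 11 CG dinucleotides, which puts THEMIS2 at percentile 80.8, TGFBR3L at 41.6 and GBP4 at 6.4. The motifs searched were the interferon-stimulated response element, TTCNNNGAA (gamma-activated site), the early B-cell factor motif, GGGCGG (GC box), CCAAT and TATAAA. The THEMIS2 sequence shown held 9 GC boxes, some of which overlap on the opposite strand, where 42.3% of all promoters hold at least 1. The TGFBR3L sequence held 1 CCAAT match on the opposite strand, a motif found in 33.0% of promoters. None of the 6 motifs had an exact match in the GBP4 sequence. The shares of promoters with the other motifs were 3.07% for the interferon-stimulated response element, 6.78% for TTCNNNGAA, 1.08% for the early B-cell factor motif and 11.1% for TATAAA. The 3 promoters range from CG-rich to CG-poor.

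Depth set how finely each mark could be read at these loci. Total counts per library ran from 11023905 to 13933927 for H3K4me3, from 3920283 to 4936265 for H3K4me1, from 2955710 to 3681687 for H3K27ac and from 2103185 to 2880412 for H3K9me3. Values below are CPM, the counts scaled to equal library size after normalisation for library composition. The targeted gene was checked first. H3K4me3 over the region of ZNF436 (chr1:23686304-23698054) was 153, 173 and 161 CPM in control replicates 1 to 3 and 11.6, 10.1 and 9.59 CPM in knockdown, a log2 fold change of -3.96 (edgeR adjusted p = 1.41e-14) with every knockdown library below every control library.

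For each window the region with the smallest H3K4me3 p-value among those higher in knockdown is called the lead region. GBP4 has a pair of regions, a wide one of 1801 bp and a narrow one of 1201 bp, and the narrow one is its lead by this rule. H3K4me3 at the KISS1R lead region (chr19:916733-920901, 4169 bp) was 29.5, 20.1 and 25 CPM in control and 63.3, 55.3 and 50.6 CPM in knockdown. Every knockdown library lay above every control library. The means were 24.9 ± 4.71 and 56.4 ± 6.42 CPM (SD, n = 3 each), a 2.27-fold difference.

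At the TGFBR3L lead region (chr19:7980530-7983265, 2736 bp) H3K4me3 was 26.9, 19.9 and 27 CPM in control and 67.5, 70.3 and 63.6 CPM in knockdown. The groups did not overlap, and the knockdown libraries were close to each other. The means were 24.6 ± 4.06 and 67.2 ± 3.36 CPM (SD, n = 3 each), a 2.73-fold difference.

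At the EBF2 lead region (chr8:25900236-25904639, 4404 bp) it was 16.6, 14.7 and 20.5 CPM in control and 38.5, 41.5 and 38.4 CPM in knockdown. The groups again did not overlap. The means were 17.3 ± 2.99 and 39.4 ± 1.79 CPM (SD, n = 3 each), a 2.29-fold difference.

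At the THEMIS2 region (chr1:28198573-28200243, 1671 bp) it was 14.1, 11.5 and 9.28 CPM in control and 32.0, 34.6 and 36.6 CPM in knockdown. No control library came near the lowest knockdown library. The means were 11.6 ± 2.42 and 34.4 ± 2.3 CPM (SD, n = 3 each), a 2.96-fold difference and the largest of the leads apart from narrow GBP4.

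The wide GBP4 region (chr1:89663378-89665178) had 12.4, 9.48 and 19.2 CPM in control and 28.5, 24.8 and 33.1 CPM in knockdown. Control replicate 3 was the highest control, and the groups still did not overlap. The means were 13.7 ± 4.97 and 28.8 ± 4.15 CPM (SD, n = 3 each), a 2.11-fold difference. The narrow GBP4 region (chr1:89666187-89667387) had 0.924, 1.24 and 2.49 CPM in control and 4.85, 5.58 and 6.94 CPM in knockdown. This is a weak signal, at 57 control and 206 knockdown counts in all, with means of 1.55 ± 0.83 and 5.79 ± 1.06 CPM (SD, n = 3 each) and a 3.73-fold difference.

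**Figure D1:**
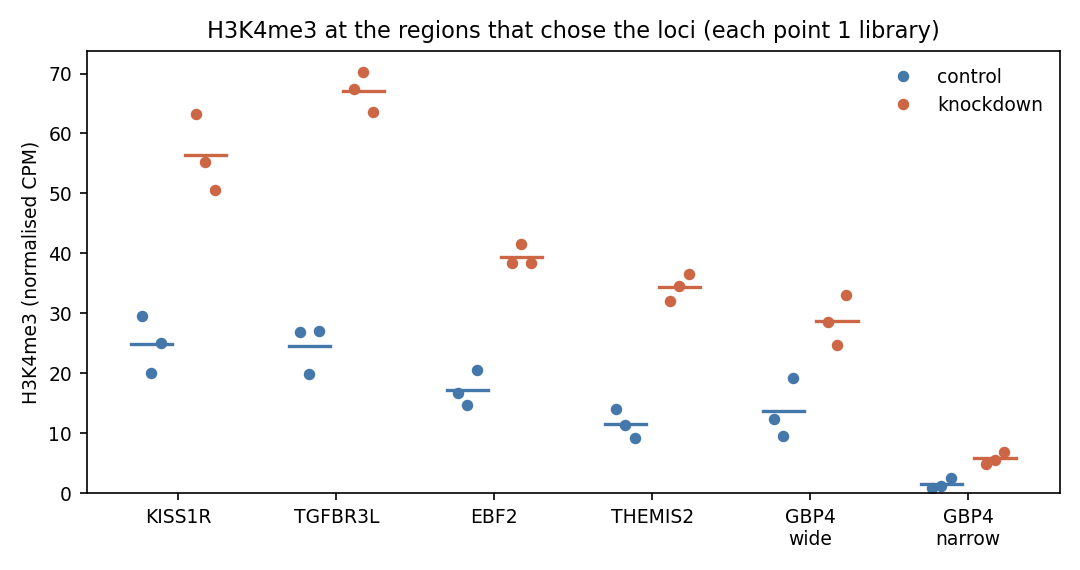
H3K4me3 in normalised CPM (vertical axis) at the lead region of each locus and the wide GBP4 region (horizontal axis), 1 point per library, with a line at the mean of 3 control or 3 knockdown libraries. The knockdown points lie above the control points at all 6 regions, which were chosen on these values.

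Of the 12 regions, 10 had enough H3K4me3 counts to test and 6 of those were called higher (edgeR adjusted p below 0.05), where 0.374% of 26773 regions tested were called higher. By edgeR p-value narrow GBP4 ranked 95 of the 100 regions called higher, and wide GBP4 had a larger p-value. Both GBP4 calls were thus near the threshold, while the other leads ranked from 2 to 9. Groups were apart, with knockdown higher, at 7 of the 10, where 8.49% of all tested regions were so. This count is fixed by how the loci were chosen and nothing is read from it. The 6 regions were of middle density. As a percentile of CPM per kb among tested regions, TGFBR3L went from 51.9 in control to 77.8 in knockdown, THEMIS2 from 47.5 to 71.1, KISS1R from 45.0 to 59.4, EBF2 from 40.1 to 51.5, wide GBP4 from 49.0 to 63.4 and narrow GBP4 from 27.3 to 42.3. Per kb of region the H3K4me3 level in knockdown was 24.5 CPM at TGFBR3L, 20.6 at THEMIS2, 16 at wide GBP4, 13.5 at KISS1R, 8.95 at EBF2 and 4.82 at narrow GBP4.

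Other strong regions of the same windows stayed near their control level. In the KISS1R window a region 5.6 kb before the lead had 28.2 ± 3.21 CPM in control and 28.1 ± 3.56 CPM in knockdown, and one 7.6 kb after it had 156 ± 10.4 and 151 ± 5.26 CPM (SD, n = 3 each). In the TGFBR3L window a region 3.7 kb after the lead had 42.2 ± 2.47 and 43.0 ± 3.67 CPM. The groups overlapped at all 3 of these regions. In the EBF2 window a region 34.3 kb before the lead had 1.26, 0.657 and 2.75 CPM in control and 5.13, 3.66 and 3.97 CPM in knockdown, which was 2.75-fold higher with groups apart but was not called. The remaining EBF2 regions held 6 control and 4 knockdown counts at 78.8 kb and 0 control and 2 knockdown counts at 57.4 kb from the lead, too few to test.

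Beyond the windows, 86 regions lay within 100 kb, of which 38 could be tested for H3K4me3. None was called by edgeR, by limma-voom or by DESeq2, which gave no adjusted p for 8. An unadjusted edgeR p below 0.05 was found for 6, of which 5 were higher. Over all tested regions 10.2% had one in either direction. Groups were apart with knockdown higher at 8 of the 38, where 8.49% of all tested regions were so, and with knockdown lower at 3. Among the neighbours over 10 CPM in control, log2 fold changes ran from -0.07 to 0.25 for 6 regions near KISS1R, from -0.02 to 0.37 for 8 near TGFBR3L and from -0.11 to -0.02 for 4 near THEMIS2. No region near EBF2 could be tested, and 1 near GBP4 could, at a log2 fold change of 1.37. Whether these differ from the leads was not tested, since the leads were chosen for their height. For H3K27ac, 56 of the 86 could be tested. Of these edgeR called 0, DESeq2 1, with no adjusted p for 18, and limma-voom 1. Over all 61484 regions tested for H3K27ac they called 7, 669 and 185. No tool called any of 50 tested for H3K4me1 or 15 for H3K9me3, with no adjusted p from DESeq2 for 7 and 15. By RefSeq gene order the neighbours are R3HDM4 and ARID3A for KISS1R, MAP2K7 and SNAPC2 for TGFBR3L, CDCA2 and PPP2R2A for EBF2, PPP1R8 and RPA2 for THEMIS2, and GBP7 and GBP5 for GBP4.

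**Figure D2:**
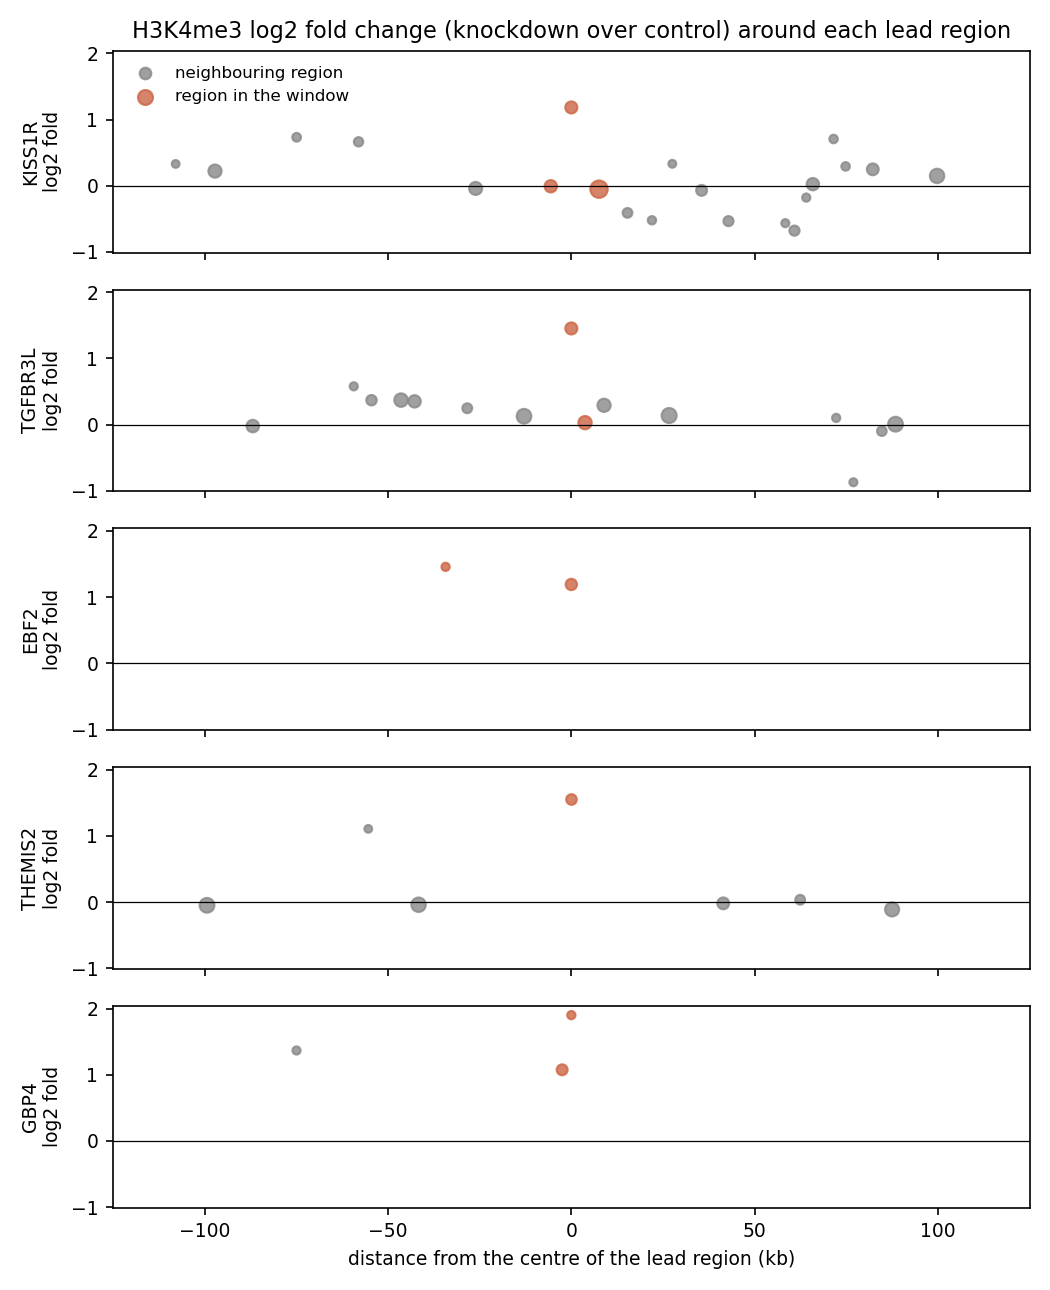
H3K4me3 log2 fold change, knockdown over control (vertical axes), against distance in kb from the centre of the lead region (horizontal axis), for tested regions of the windows and within 100 kb of them, 1 panel per locus. Point area grows with the control level. Neighbours over 10 CPM in control had log2 fold changes from -0.11 to 0.37 around KISS1R, TGFBR3L and THEMIS2. The lead regions were chosen for their height, so nothing is read from their place above these neighbours.

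H3K27ac was measured in other libraries and was not used to choose the loci. It was higher in all knockdown libraries than in all control libraries at TGFBR3L and both GBP4 regions, and the groups overlapped at KISS1R, EBF2 and THEMIS2. None of these differences passed the test after adjustment, and differences between loci were not tested. At the TGFBR3L lead region it was 12.1, 12.1 and 5.51 CPM in control and 24.8, 24.3 and 24.7 CPM in knockdown. The knockdown libraries were nearly equal, and all stood above the controls. The log2 fold change was 1.31 (SE 0.42, 95% interval 0.43 to 2.19) with an edgeR adjusted p of 0.228.

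At the wide GBP4 region H3K27ac was 6.89, 5.87 and 13.2 CPM in control and 18.4, 20.5 and 27.1 CPM in knockdown. The groups did not overlap, and control replicate 3 was again the highest control. The log2 fold change was 1.34 (SE 0.45, 95% interval 0.40 to 2.29) with an edgeR adjusted p of 0.25. At the narrow GBP4 region it was 4.14, 1.10 and 4.41 CPM in control and 7.48, 11.7 and 9.25 CPM in knockdown, also without overlap. There the log2 fold change was 1.54 (SE 0.68, 95% interval 0.13 to 2.96) with an edgeR adjusted p of 0.391.

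At the KISS1R lead region H3K27ac was 13.4, 11.8 and 16.5 CPM in control and 21.4, 11 and 9.56 CPM in knockdown. The groups overlapped, with knockdown replicate 1 the highest of the 6. The log2 fold change was 0.01 (95% interval -0.95 to 0.97, edgeR adjusted p = 0.997). At the THEMIS2 region H3K27ac was 2.76, 5.87 and 4.77 CPM in control and 2.38, 4.55 and 1.23 CPM in knockdown. These overlapping values rest on 37 control and 23 knockdown counts, at a log2 fold change of -0.72 (95% interval -2.60 to 1.16, edgeR adjusted p = 0.827). The EBF2 lead region was too weak in H3K27ac to test, at 28 control and 29 knockdown counts.

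Of the 12 regions, 9 could be tested for H3K27ac and 0 were called by edgeR, where 0.00813% of 61484 tested regions were called higher. DESeq2 also called 0, with no adjusted p for 3, and limma-voom 0. Of the 9, 3 had an unadjusted p below 0.05, all higher, where 5.91% of all tested regions did, and the same 3 had groups that did not overlap, where 9.14% of all tested regions were higher in this way. The median log2 fold change of the 9 was 0.47, beside -0.05 over all tested regions. In the other regions of the windows H3K27ac went from 95.6 to 99.7 CPM 7.6 kb after the KISS1R lead and from 21.6 to 30.1 CPM 3.7 kb after the TGFBR3L lead, with edgeR adjusted p of 0.952 and 0.656.

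The 94 other regions called higher in H3K4me3 give the setting for these H3K27ac values. Of them 80 could be tested for H3K27ac, 68 had a positive fold change and 29 had an unadjusted p below 0.05 in that direction, with a median log2 fold change of 0.68 and a middle range from 0.22 to 1.12. TGFBR3L and both GBP4 regions lay above that range, and KISS1R and THEMIS2 lay below it. Relative to all regions tested for H3K4me3, H3K27ac density went from percentile 22.7 to 60.5 at TGFBR3L and from 31.1 to 74.2 at wide GBP4. At THEMIS2 it was at percentile 16 in control and 9.9 in knockdown, and at EBF2 at 2.5 and 3.1.

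**Figure D3:**
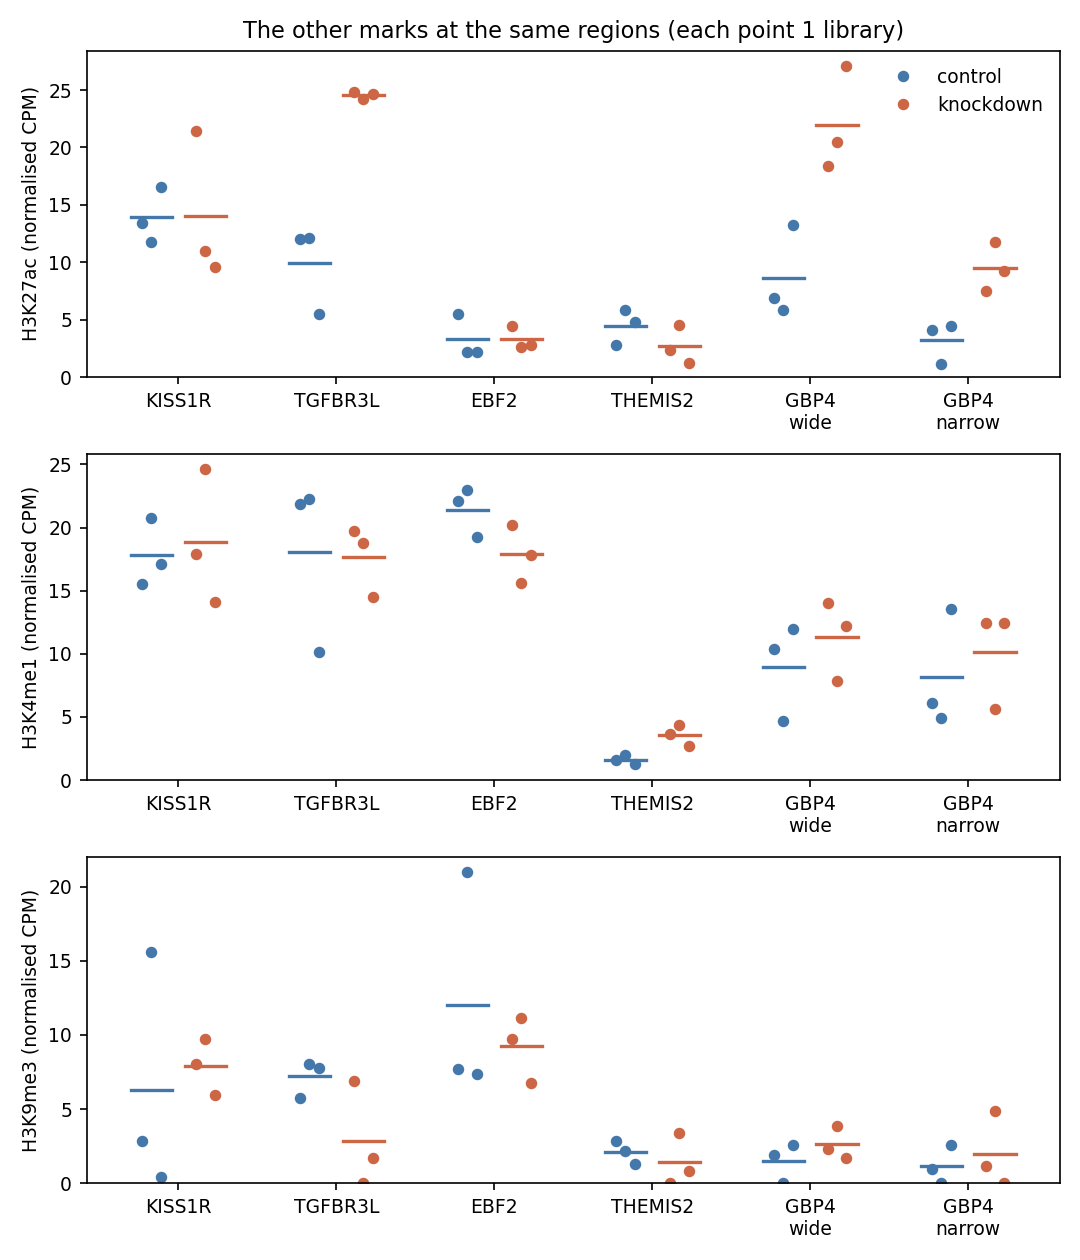
H3K27ac, H3K4me1 and H3K9me3 in normalised CPM (vertical axes) at the same 6 regions (horizontal axis), 1 point per library with a line at each mean of 3. In H3K27ac the groups are apart at TGFBR3L and both GBP4 regions and overlap at KISS1R, EBF2 and THEMIS2.

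H3K4me1 gave no call at any of the loci. At the lead regions the values in control were 15.6, 20.8 and 17.2 CPM for KISS1R and 21.9, 22.2 and 10.1 CPM for TGFBR3L, and in knockdown 17.9, 24.7 and 14.1 CPM and 19.7, 18.8 and 14.5 CPM. The groups overlapped at both, with log2 fold changes of 0.08 (95% interval -0.51 to 0.68) and -0.04 (95% interval -0.67 to 0.59). EBF2 had 22.1, 23.0 and 19.2 CPM in control and 20.2, 15.6 and 17.8 CPM in knockdown, with a log2 fold change of -0.26 (95% interval -0.82 to 0.30). The THEMIS2 region was nearly free of H3K4me1, at 1.58, 1.95 and 1.30 CPM in control and 3.63, 4.40 and 2.70 CPM in knockdown. There the groups did not overlap, on 20 control and 45 knockdown counts, at a log2 fold change of 1.13 (95% interval -0.28 to 2.54, edgeR adjusted p = 0.58). The region 3.7 kb after the TGFBR3L lead had 14.4, 14.7 and 10.1 CPM in control and 18.7, 26.1 and 20.1 CPM in knockdown, also without overlap, at a log2 fold change of 0.72 (95% interval 0.12 to 1.33, edgeR adjusted p = 0.387). Of 10 regions tested, 0 were called by edgeR (0% of 85815 in all), DESeq2 or limma-voom, DESeq2 giving no adjusted p for 1, and 1 had an unadjusted p below 0.05, where 10.5% of all tested regions did. Groups were apart, with knockdown higher, at 2 of the 10, where 7.90% of all tested regions were so.

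H3K9me3 was low in counts and noisy at these loci. As a percentile of density among regions tested for H3K4me3, control and knockdown were 81.4 and 77.7 at KISS1R. They were 91.7 and 43.6 at TGFBR3L, 92.1 and 81.7 at EBF2 and 75.3 and 32.2 at THEMIS2. For GBP4 they were 55.0 and 63.8 (wide) and 64.0 and 71.2 (narrow). Differences in these percentiles were not tested. At KISS1R the H3K9me3 values were 2.88, 15.6 and 0.433 CPM in control and 8.01, 9.70 and 5.93 CPM in knockdown, so that control replicate 2 alone was above every knockdown library. The log2 fold change was 0.35 (95% interval -0.98 to 1.69, edgeR adjusted p = 0.924), and without control replicate 2 it was 2.19. At TGFBR3L it was 5.75, 8.06 and 7.79 CPM in control and 6.87, 0 and 1.70 CPM in knockdown, on 45 and 16 counts. The groups overlapped through knockdown replicate 1, at a log2 fold change of -1.37 (95% interval -2.99 to 0.25, edgeR adjusted p = 0.676). It was -2.97 without knockdown replicate 1 (edgeR adjusted p = 0.381) and -0.80 without knockdown replicate 2 (edgeR adjusted p = 0.877). At EBF2 it was 7.67, 21.0 and 7.36 CPM in control and 9.73, 11.2 and 6.78 CPM in knockdown, at a log2 fold change of -0.37 (95% interval -1.37 to 0.63, edgeR adjusted p = 0.891). The other 9 regions had too few counts to test, and of the 3 tested 0 were called by edgeR (0.00982% of 30565 in either direction) or limma-voom and 0 had an unadjusted p below 0.05 (8.31% of all tested regions), while DESeq2 gave no adjusted p.

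**Figure D4:**
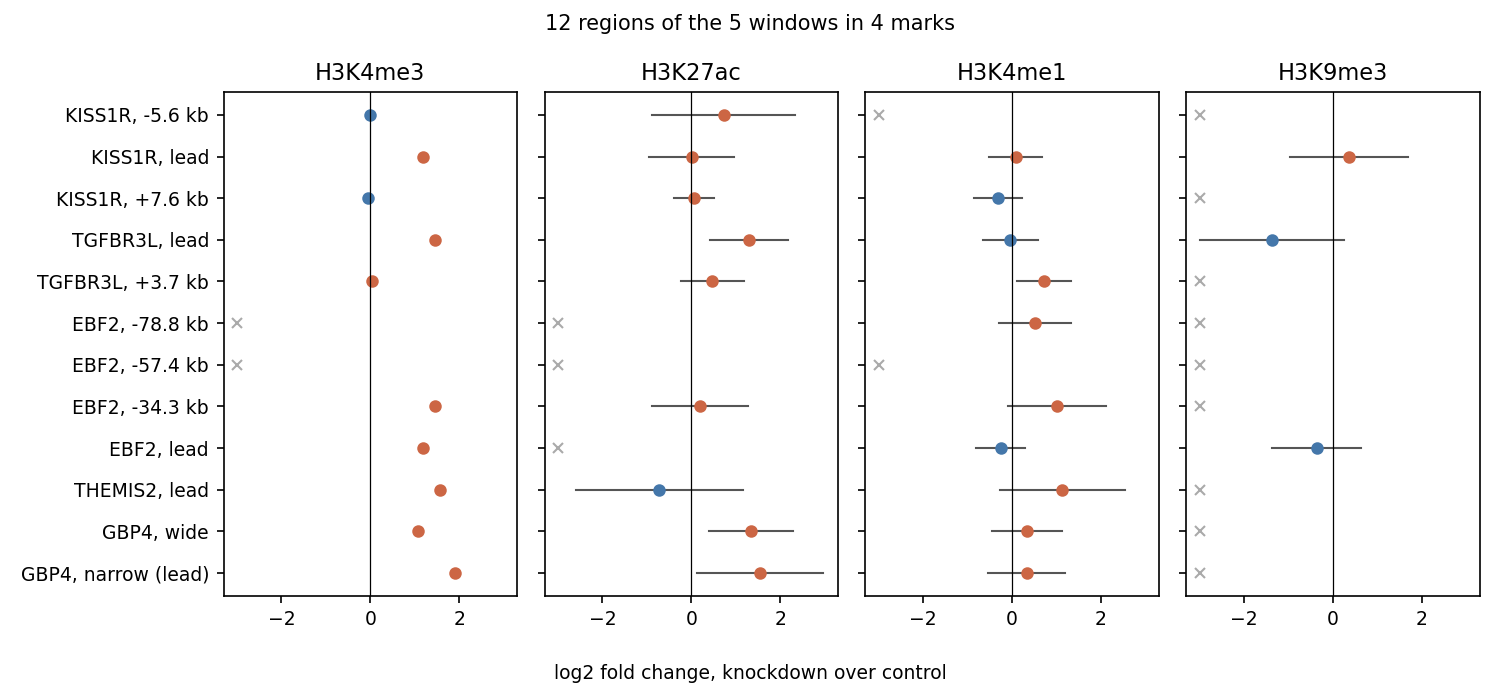
Log2 fold change, knockdown over control (horizontal axis), of the 12 regions (rows, named by locus and distance from the lead in kb) in each of 4 marks (panels), with 95% intervals for the 3 marks that did not choose the loci. A grey cross at the left edge marks a region with too few counts to test and is not a value.

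Genes related to the 5 by function or family were read from a list of 19, by promoter windows of 5 kb on either side of the start, of which 16 had a region and 14 could be tested for H3K4me3. None was called in either direction by edgeR (0.560% of all tested regions were called), DESeq2 or limma-voom, with no adjusted p from DESeq2 for 1. Of the 14, 3 had an unadjusted p below 0.05, where 10.2% of all tested regions did, and 2 of these were lower in knockdown (TGFBR2 and ENG) and 1 higher (GBP2). KISS1, the gene of the receptor's ligand, had 1.03 CPM in control and 0.706 CPM in knockdown. TGFBR3, which encodes betaglycan, had 83.8 ± 8.19 and 82.2 ± 5.36 CPM (SD, n = 3 each), and the TGF-beta receptor gene TGFBR1 had 129 and 122 CPM. TGFBR2, another receptor of that pathway, had 59.1 ± 6.15 and 49.1 ± 1.63 CPM (SD, n = 3 each), with groups that did not overlap, at a log2 fold change of -0.27 (edgeR adjusted p = 0.311). ENG, the gene of the co-receptor endoglin, had 7.36 ± 4.26 and 4.16 ± 0.963 CPM, with groups that overlapped, at a log2 fold change of -0.81 (edgeR adjusted p = 0.472). Among the other early B-cell factor genes, EBF1 had 7.22 and 6.30 CPM, EBF3 28.7 ± 6.16 and 22.2 ± 5.54 CPM and EBF4 35.5 and 38.6 CPM. GRB2, an adaptor that binds the THEMIS proteins, had 90.9 and 83.6 CPM. GBP2, a member of the same gene cluster as GBP4, had 1.37 ± 0.546 and 3.55 ± 1.32 CPM (SD, n = 3 each), with groups that did not overlap, at a log2 fold change of 1.37 (edgeR adjusted p = 0.241), and its H3K27ac was 15.0 and 6.85 CPM with groups that overlapped. This GBP2 region is the same as the tested neighbour near GBP4 given above, so it is not a second observation. GBP3 of the same family had lower values without overlap in H3K4me3 (1.98 and 1.29 CPM, edgeR adjusted p = 0.768) and in H3K4me1 (9.41 and 5.62 CPM, edgeR adjusted p = 0.536). GBP6 had too little H3K4me3 to test, and its H3K27ac was 14.8 ± 7.84 and 35.4 ± 7.12 CPM (SD, n = 3 each), with groups that did not overlap (log2 fold change 1.26, edgeR adjusted p = 0.209). The interferon-response regulator IRF1 had 78.4 and 78.7 CPM in H3K4me3. For H3K27ac, 13 of the related genes could be tested. None was called by edgeR (0.00813% of all tested regions were called higher), limma-voom or DESeq2, which gave no adjusted p for 1. Of the 13, 3 had an unadjusted p below 0.05, and 1 of these (GBP6) was higher. Over all tested regions 5.91% were higher in this way. TGFBR2, another of the 3, had 27.3 ± 14.3 and 9.87 ± 5.12 CPM with groups that overlapped (log2 fold change -1.475, edgeR adjusted p = 0.241).

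Markers of the cell types the cultures could hold were read the same way. Fewer cells of a type and less mark per cell cannot be told apart in these bulk libraries. Of 9 cardiomyocyte promoters 8 could be tested for H3K4me3. All 8 had a positive fold change (log2 0.20 to 1.02, median 0.70), where 48.41% of all tested regions did. Of these 8, 0 were called by edgeR (0.560% of all tested regions were called), DESeq2 or limma-voom. An unadjusted p below 0.05 was found for 0 of them and for 10.2% of all tested regions. MYL2, a defining marker of ventricular cardiomyocytes, was near 0 at 0.216 CPM in control and 0.0862 CPM in knockdown. The 9 promoters summed to 478, 262 and 905 CPM in control replicates 1 to 3 and 929, 763 and 849 CPM in knockdown. Control replicate 3 stood at the knockdown level for these genes, and all 6 member regions in that library were below every knockdown library. TGFBR3L, EBF2 and both GBP4 regions had their highest control value there, and THEMIS2 its lowest. Without that library the H3K4me3 log2 fold changes were 1.19 at KISS1R, 1.52 at TGFBR3L, 1.33 at EBF2, 1.43 at THEMIS2, 1.39 at wide GBP4 and 2.4 at narrow GBP4, beside 1.18, 1.45, 1.19, 1.56, 1.07 and 1.90 with it. The members were chosen for higher H3K4me3 in knockdown, so their place in that library was largely set in advance. Nothing is read from it or from these fold changes. In H3K27ac the same 9 promoters summed to 1045, 604 and 1718 CPM in control and 1777, 1545 and 1677 CPM in knockdown. There too control replicate 3 stood at the knockdown level. Of the 8 tested, all had a positive fold change (median log2 0.69), where 47.24% of all tested regions did. An unadjusted p below 0.05 was found for 5, all higher, where 5.91% of all tested regions were so. Of the 8, edgeR called 0, DESeq2 0 and limma-voom 1. Over all 61484 tested regions edgeR called 7, DESeq2 669 and limma-voom 185. In control replicate 3 H3K27ac at TGFBR3L and both GBP4 regions was below every knockdown library, at its lowest control value for TGFBR3L and its highest for both GBP4 regions. The part of these markers in the H3K27ac differences was not tested.

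In H3K4me3 the immune marker SPI1 was at or near 0 in every library (0 to 0.84 CPM in control, 0.165 to 0.956 in knockdown). No region was listed for PTPRC, so only 1 immune marker could be read. Summed markers ran from 73.8 to 79.9 CPM in control and 78.1 to 87.2 in knockdown for pluripotent cells (LIN28A and SOX2, with no region listed for POU5F1), and from 371 to 376 and 375 to 400 for mesenchymal and adipose cells. The endothelial sum ran from 56.5 to 75.1 CPM in control and 89.5 to 93.1 in knockdown, almost all of it KDR, which was called higher (log2 fold change 0.49, edgeR adjusted p = 0.0201), while CDH5 had 0.357 and 0.163 CPM. The neural marker PAX6 ran from 5.11 to 6.30 CPM in control and 7.97 to 14.8 in knockdown (edgeR adjusted p = 0.116). Of the 8 markers of other cell types tested for H3K4me3, edgeR and limma-voom each called 1 and DESeq2 called 2. Over all 26773 tested regions edgeR called 0.560%, DESeq2 called 456 regions and limma-voom called 112. KDR and PAX6 were the 2 markers with an unadjusted p below 0.05, where 10.2% of all tested regions had one. The part of any change in cell makeup in the H3K4me3 differences was not tested.

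**Figure D5:**
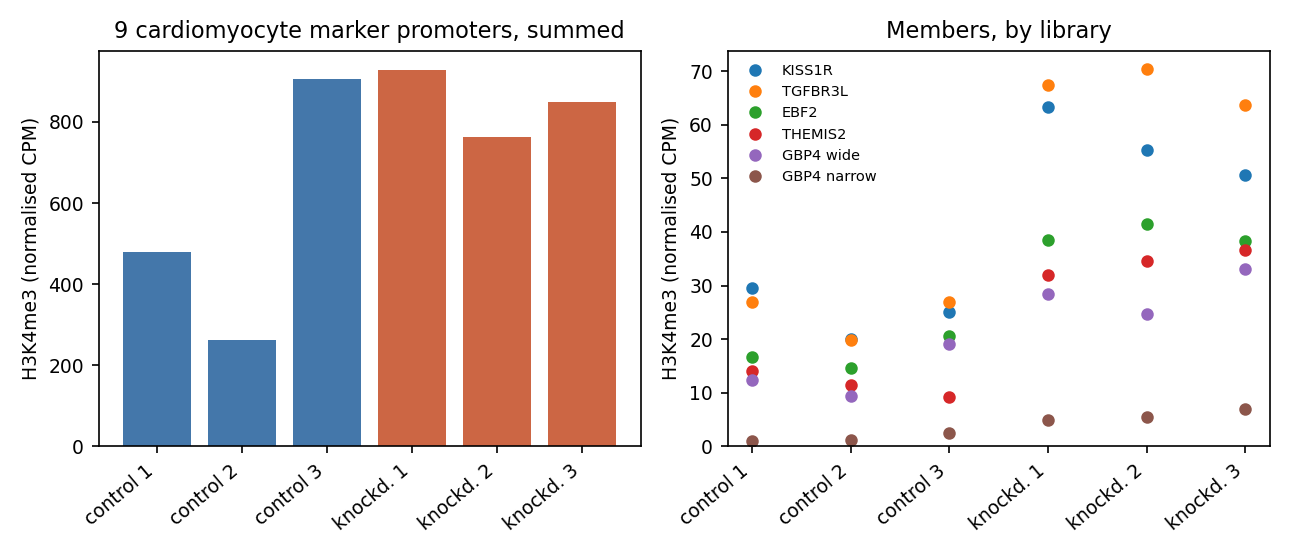
Left, H3K4me3 in normalised CPM summed over 9 cardiomyocyte marker promoters in each library. Right, H3K4me3 in normalised CPM at the 6 member regions in the same libraries. Control replicate 3 sums to 905 CPM on the left, within the knockdown range of 763 to 929. It lies with the controls on the right, at regions chosen for higher H3K4me3 in knockdown.

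The 3 regions outside the windows whose H3K4me3 followed the mean of the 5 lead regions most closely over the 6 libraries, among 4622 of similar level, lay at chr19:17437983-17440075, chr3:169529342-169531064 and chr14:105646595-105648735. Their Pearson r was 0.99, 0.987 and 0.987, over libraries that share the group difference and the sequencing depth, and is a description without a test. Their levels went from 14 to 30.6 CPM, from 13.2 to 26.2 CPM and from 21.3 to 31.1 CPM.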

How the data were processed

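The authors deposited counts per region, one file per library, over a shared list of 153244 regions, and the counts are used as deposited. The build was hg19 and the tools were bedtools 2.30.0, Bowtie2 2.4.5 and deepTools 3.5.4, per the submitters' processing notes, which give no role for each. The origin of the region list is not stated there. Of the counts above 0, 51.94% to 65.94% were even, so both mates of a pair may have been counted. Groups and replicates come from the sample titles.

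Each mark was fitted on its own 6 libraries with edgeR 4.0.16 in R 4.3.3 (TMM, filterByExpr, robust quasi-likelihood test, group as the only term). P-values were adjusted by Benjamini-Hochberg over all tested regions of a mark, with a threshold of 0.05. DESeq2 1.42.0 and limma-voom (limma 3.58.1), other normalisations and filters, a replicate block and leaving out each library were the alternatives, and the scripts were tested on simulated data. Replicates of a group differed by more than sampling noise, at a chi-square of 3.16 to 10.3 per degree of freedom, and all were kept apart. The members, gene lists and rules were chosen with earlier results of these data known. Every region in a window is accounted for, with lead regions given in every library for the marks in which they could be tested. Lead regions too weak to test in a mark are given there by summed counts or density percentile. The gene of each window is the one its selection names, and start sites of related and marker genes were written from knowledge of hg19, without an annotation of that build, the site of THEMIS being uncertain. The values of 1 listed related gene are not reported here.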

Additional observations from a re-analysis of the deposited data

How the results depend on the processing

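The H3K4me3 differences at the 5 lead regions and the wide GBP4 region kept their direction under every setting run, at log2 fold changes of 1.05 to 1.33 for KISS1R, 1.32 to 1.53 for TGFBR3L, 1.08 to 1.33 for EBF2, 1.43 to 1.73 for THEMIS2, 1.65 to 2.4 for narrow GBP4 and 0.86 to 1.39 for wide GBP4 when 1 library at a time was left out. These regions were chosen on this contrast and their groups did not overlap, so the direction was largely set in advance. Nothing is read from its being kept. In the other 3 marks, 176 values of 14 results at these regions gave 0 calls, and 6 had no adjusted p. The lowest edgeR adjusted p, 0.0534, was for H3K27ac at wide GBP4 without control replicate 3 (log2 fold change 1.81), a region added to these runs after its values were seen. Small fold changes turned sign. H3K27ac at KISS1R was -0.0376 with library totals alone, -0.0802 under the strict filter and -0.0754 with limma-voom, and H3K4me1 at TGFBR3L was 0.0117 with library totals alone and 0.00715 with limma-voom. With 1 library left out, these 2 ran from -0.41 to 0.24 and from -0.33 to 0.13, H3K4me1 at KISS1R from -0.15 to 0.25, H3K9me3 at KISS1R from -0.23 to 2.19 and H3K9me3 at EBF2 from -0.64 to 0.25. The cause was not tested.

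Counts of called regions over the whole table moved far more. For H3K4me3, 150 became 666 without a filter and 456 with DESeq2, and 27 to 805 with 1 library left out, the highest without control replicate 3 and the lowest without knockdown replicate 3; all 6 single omissions moved it by over 1.5 times. For H3K27ac, 7 became 4 with library totals alone, 599 without a filter, 43 under the strict filter, 669 with DESeq2 and 185 with limma-voom, and 0 to 1412 with 1 library left out, the highest again without control replicate 3. For H3K4me1, 0 became 10 with library totals alone, 208 without a filter, 94 with DESeq2 and 67 with limma-voom, and 0 to 2443 with 1 library left out, the highest without control replicate 3. For H3K9me3, 3 became 49 with DESeq2 and 6 with limma-voom, and 4 to 20 with 1 library left out, the highest without control replicate 2. Same-numbered control and knockdown libraries had correlations of their deviations between -0.098 and 0.064, and differently numbered ones between -0.081 and 0.098. These values, over deviations from means of 3 libraries, cannot settle whether same-numbered libraries shared a culture or a batch. With the replicate number as a block the counts were 177 for H3K4me3, 102 for H3K27ac, 94 for H3K4me1 and 6 for H3K9me3, and under that block H3K27ac at KISS1R was -0.0616 and H3K4me1 at TGFBR3L 0.0261. Regions too weak for the strict filter have no value there. H3K9me3 libraries held the fewest counts of the 4 marks, and 3 of the 12 regions could be tested in it.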
